A study of Mus musculus with 6 samples.

Results

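Ism1 encodes isthmin-1, a secreted protein, and the genes described here are Ism1, its paralog Ism2 and the genes of the 2 receptors known for isthmin-1, which are Hspa5 and the integrin pair Itgav and Itgb5. They were chosen by name from the deposited table of read counts, as 5 of its 54532 genes. The choice used no rule on their values, but earlier results of these data were known. All 5 passed the filter on low counts, which left 18689 genes to test. RNA was measured in perfused whole lungs from untreated mice at 2 months of age, in 3 wild-type (WT) libraries and 3 libraries labelled ISM1-KO, called ISM1-/- here. The WT mice were bought C57BL/6J animals and the ISM1-/- mice were bred in-house on a C57BL/6J background, so the effects of genotype and of origin cannot be told apart. The labels number the libraries of each genotype and do not name the animals, so the p-values measure the spread between these libraries.

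Isthmin-1 carries a thrombospondin type 1 repeat and an adhesion-associated domain called AMOP, which is also found in MUC4 and SUSD2. Extracellular isthmin-1 is known to bind αvβ5 integrin, a heterodimer of the chains encoded by Itgav and Itgb5 that also recognises vitronectin, and GRP78, the product of Hspa5. GRP78 is the HSP70 chaperone of the endoplasmic reticulum (ER), where it folds new proteins and restrains the sensors of the unfolded protein response. Part of the GRP78 pool reaches the surface of some cells and acts there as a receptor.

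The libraries held between 37606133 and 42345042 counts. Levels between libraries are given as CPM, a read count scaled to a common library total, after TMM scaling, which corrects these totals for differences in composition. Summed levels of gene lists and levels per length are scaled by library total alone, without TMM. The lung identity of the tissue was clear from the alveolar type 2 (AT2) marker Sftpc, at a mean of 12360 CPM in ISM1-/- libraries, and 0 of 8 AT2 markers passed the test between genotypes (edgeR, adjusted p under 0.1; 1 of 8 had an unadjusted p under 0.05, and DESeq2 called 0). Over all genes tested 4.72% were called, 1.38% as higher and 3.34% as lower in ISM1-/-, and 0.567% were called with at least a 2-fold change. Replicate 3 of ISM1-/- stood apart from the other libraries of its genotype. Summed adipocyte markers were 24.56 and 29.57 CPM in ISM1-/- replicates 1 and 2, 53.1 CPM in replicate 3 and 85.26 to 111.0 CPM in WT, and 6 of 6 of these markers were called lower, or 5 by DESeq2 and 2 to 6 when a library was left out, with 2 without WT replicate 2 or ISM1-/- replicate 2. Summed cardiomyocyte markers were highest in WT replicate 1, at 1629 CPM against 532.3 and 636.6 CPM in the other WT libraries. The fold changes of the isthmin and receptor genes, the counts of calls and the ratio of Itgb5 to Itgav were therefore also computed without each library in turn.

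Ism1 lies on the plus strand at chr2:139678178-139758581 (GRCm38) and has 6 exons. The RT-PCR primers that the study designed for Ism1 are shown because they place an assay in exons 1 and 2, whereas the read counts cover the gene as a whole.
forward primer: acgctgcacatcacggttct
reverse primer: tgtctggggaagggttggtg
Both matched the Ism1 transcripts exactly, the forward primer in coding sequence of exon 1 at chr2:139678721-139678740 and the reverse primer, on the opposite strand, in exon 2 at chr2:139731954-139731973. They frame a product of 191 bases on the longer of the 2 annotated transcripts and of 170 bases on the other, because exon 1 ends at a different base in each. Exon 6 alone holds 1604 of the 2964 bases of the longer transcript, and 515 of its bases are coding. The stretch of Ism1 altered in the ISM1-/- allele is not given in the sources used here, and counts per gene cannot show on which exons the reads lay.

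The targeted gene was still read in every library labelled ISM1-/-. The reads of Ism1 numbered 3098, 3215 and 2975 in WT replicates 1 to 3, and 2784, 2508 and 2953 in ISM1-/- replicates 1 to 3. After scaling, the WT libraries held 82.09, 77.39 and 76.86 CPM and the ISM1-/- libraries 65.42, 66.04 and 75.62 CPM. The genotypes did not overlap, as was the case for 21.6% of all genes tested, and ISM1-/- replicate 3 lay close to the lowest WT library. The means were 78.78 ± 2.879 CPM in WT and 69.03 ± 5.719 CPM in ISM1-/- (SD, n = 3 each), so that the ISM1-/- libraries kept 87.6% of the WT level. The log2 fold change was -0.19 with a standard error of 0.0709 and a 95% interval of -0.35 to -0.03. It did not pass edgeR's quasi-likelihood test over all genes, with a Benjamini-Hochberg adjusted p of 0.2169. The exact two-sided permutation test gave p = 0.1, which is the smallest that 6 libraries in 2 groups of 3 allow. The count of Ism1 therefore did not check the genotype labels, which are used as given.

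**Figure D1:**
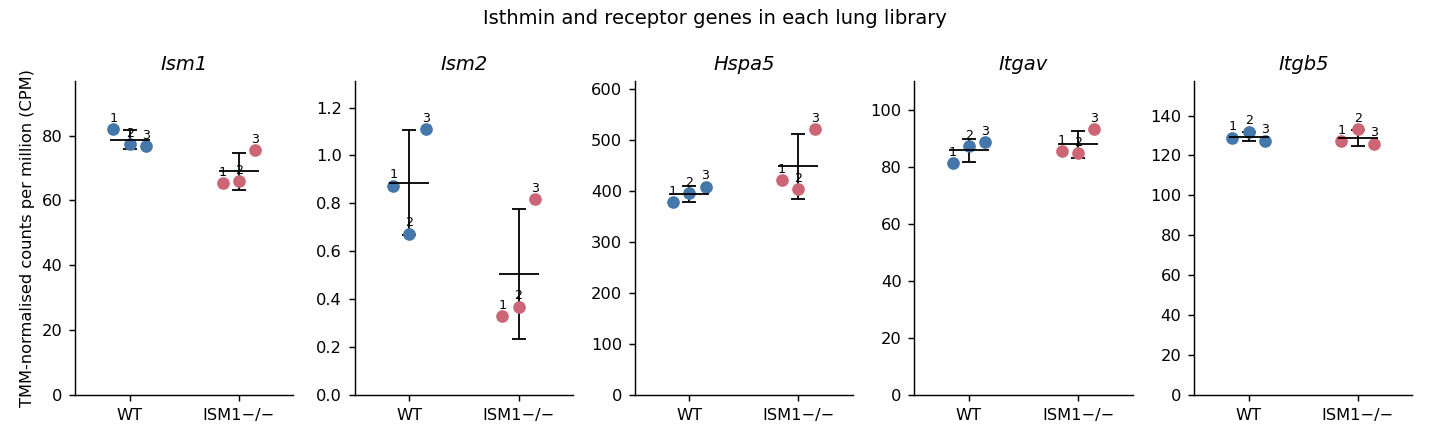
TMM-normalised CPM (y axis, from 0, with its own scale for each gene) of Ism1, Ism2, Hspa5, Itgav and Itgb5 in WT and ISM1-/- lungs; points are libraries numbered by replicate, and bars are mean ± SD of 3 libraries. The Ism1 libraries of ISM1-/- lie at 65.42 to 75.62 CPM, below all WT libraries, and replicate 3 is the highest ISM1-/- library for Ism1, Ism2, Hspa5 and Itgav.

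One library decided the call of Ism1. Without ISM1-/- replicate 3 the log2 fold change was -0.26 and passed the test (edgeR, adjusted p = 0.0356). The same library was nearer to WT in adipocyte markers, and the part of these in the Ism1 result was not tested. In bulk tissue, fewer cells of a type and less RNA per cell cannot be told apart.

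Of the 19 genes of the table within 1 Mb of Ism1, 7 passed the filter, and 0 of these 7 passed the test (edgeR; 1 had an unadjusted p under 0.05, and DESeq2 called 0), 3 being lower and 4 higher. Gm14066, which lies on the opposite strand with its 5′ end 0.464 kb from the start of Ism1, had a log2 fold change of 0.10 (adjusted p = 0.852, edgeR). Tasp1, which encodes the protease taspase and lies on the opposite strand with its 3′ end 74.9 kb beyond the end of Ism1, had a log2 fold change of -0.06 (adjusted p = 0.8822, edgeR). Sptlc3, a subunit gene of serine palmitoyltransferase, had the lowest value in this window, at -0.57 (adjusted p = 0.2313, edgeR), and was chosen for mention after its value was seen.

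Ism2, the paralog of Ism1, lies on the minus strand at chr12:87278638-87299705 and was close to the limit of detection in these lungs. Its reads numbered 33, 28 and 43 in WT replicates 1 to 3, and 14, 14 and 32 in ISM1-/- replicates 1 to 3. The exact Poisson interval, which covers counting error only, was 7.65 to 23.5 for a count of 14 and 21.9 to 45.2 for a count of 32. The genotypes overlapped, since ISM1-/- replicate 3 lay above WT replicate 2. The means were 0.8865 ± 0.2187 CPM in WT and 0.5057 ± 0.2724 CPM in ISM1-/- (SD, n = 3), a log2 fold change of -0.81 with a 95% interval of -1.68 to 0.06 (edgeR, adjusted p = 0.3534). Without ISM1-/- replicate 3 it was -1.34 and passed the test (edgeR, adjusted p = 0.08037). The upper end of the interval over all libraries corresponds to a ratio of ISM1-/- to WT of 1.04.

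Muc4 and Susd2, the other genes with an AMOP domain, were called lower in ISM1-/-. Muc4, a membrane mucin of airway epithelium, had WT counts of 3268, 3556 and 3121 and ISM1-/- counts of 2870, 2435 and 2862. Its log2 fold change was -0.30 with a standard error of 0.06674 (edgeR, adjusted p = 0.04841). Muc20 overlaps Muc4 on the opposite strand with a mean of 508 counts against 3019 for Muc4, and the strand setting of the counting is not given in the sources used here. Susd2, a membrane protein with a sushi domain, had WT counts of 530, 665 and 609 and ISM1-/- counts of 469, 393 and 394. Its log2 fold change was -0.54 with a standard error of 0.08968 (edgeR, adjusted p = 0.02012). Club cell markers, of the secretory cells of the airway, were also lower by genotype. Of these markers 3 of 3 were called lower (0 to 3 when a library was left out, 0 without WT replicate 2). Summed, they held 23230 to 25150 CPM in WT and 15230 to 18740 CPM in ISM1-/-. Their part in the values of Muc4 and Susd2 was not tested. The call of Muc4 remained in 1 of the 6 fits that left out a library and that of Susd2 in 5 of 6.

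Of the 5 isthmin and receptor genes, 0 passed the test, by edgeR or by DESeq2, and 1, Ism1, had an unadjusted p under 0.05 in edgeR, beside the 4.72% of all genes that were called. Ism1 was the only one of the 5 whose genotypes did not overlap.

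**Figure D2:**
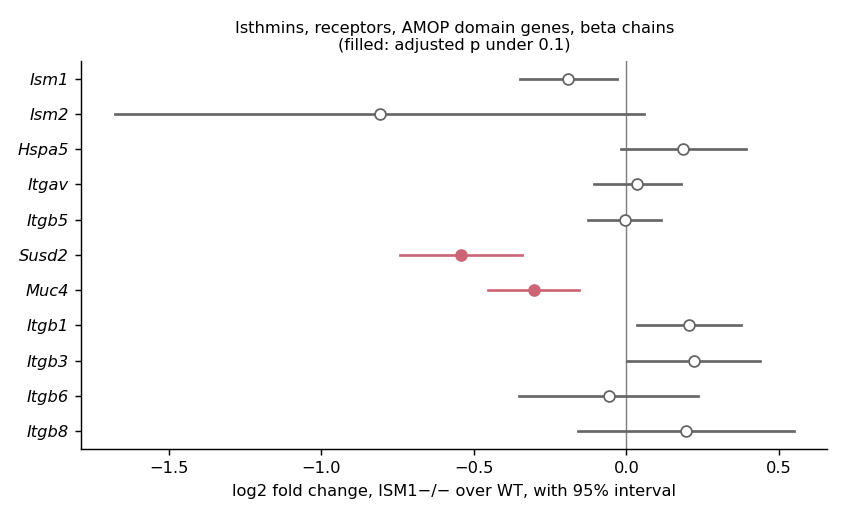
Log2 fold change of ISM1-/- over WT (x axis) with 95% intervals from edgeR for the isthmin and receptor genes, for the AMOP domain genes Susd2 and Muc4, and for the other β chains that pair with αv. Filled points have an adjusted p under 0.1, which holds for Susd2 and Muc4 and for none of the other 9 genes.

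The α chain gene Itgav lies on the plus strand at chr2:83724397-83806916. It held 81.35, 87.41 and 88.61 CPM in WT and 85.58, 84.95 and 93.34 CPM in ISM1-/-. The genotypes overlapped, and the means of 85.79 ± 3.893 and 87.95 ± 4.675 CPM (SD, n = 3) differed by less than the spread of the libraries. The interval of the ratio of ISM1-/- to WT ran from 0.929 to 1.13 (edgeR, adjusted p = 0.8517).

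The β chain gene Itgb5 lies on the plus strand at chr16:33829665-33949338. It held 128.9, 131.9 and 127.4 CPM in WT and 127.3, 133.3 and 125.9 CPM in ISM1-/-, the narrowest spread of the 5 genes on the log2 scale. The means were 129.4 ± 2.3 and 128.8 ± 3.944 CPM (SD, n = 3), and the interval of the ratio ran from 0.916 to 1.08 (edgeR, adjusted p = 0.9758). The sign of Itgb5 changed without WT replicate 2, ISM1-/- replicate 1 or ISM1-/- replicate 3 (0.0086, 0.0046 and 0.0112), and that of Itgav without ISM1-/- replicate 3 (-0.0076).

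The ratio of Itgb5 to Itgav counts within a library does not depend on library scaling. It was 1.58, 1.51 and 1.44 in WT and 1.49, 1.57 and 1.35 in ISM1-/-, with overlapping genotypes. The mean log2 ratio differed by -0.0422 (exact two-sided permutation test, p = 0.6), and by -0.0915 to 0.0177 when a library was left out, positive without ISM1-/- replicate 3.

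The αv chain also pairs with other β chains, and their genes were Itgb1, Itgb3, Itgb6 and Itgb8. None of these 4 passed the test (edgeR; 2 had an unadjusted p under 0.05, and DESeq2 called 0), 3 were higher and 1 lower in ISM1-/-, and their median log2 fold change was 0.199 beside 0.0043 over all genes, or 0.119 without ISM1-/- replicate 3. By library, the median deviation of the 4 from their own means ran from -0.252 in WT replicate 1 to 0.215 in ISM1-/- replicate 3. Itgb1, which pairs with many α chains, had 856.6 ± 33.52 CPM in WT and 986.8 ± 96.66 CPM in ISM1-/- without overlap (log2 fold change 0.20, edgeR adjusted p = 0.2182). Itgb3 encodes the β chain of the vitronectin receptor of osteoclasts. It had 35.14, 44.77 and 45.03 CPM in WT and 49.32, 45.58 and 50.7 CPM in ISM1-/- (0.22, edgeR adjusted p = 0.3071). Itgb6, an epithelial chain that activates latent TGF-β, had a log2 fold change of -0.06 and WT values from 41.34 to 60.95 CPM, the low one being replicate 1. Itgb8, with 103 to 143 counts per library, had a log2 fold change of 0.19 (edgeR adjusted p = 0.6171).

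Among the 20 other integrin chains, 1 was called higher and 1 lower, 15 had a positive and 5 a negative log2 fold change, and the median was 0.15. When a library was left out, 0 to 5 were called higher, with 5 without ISM1-/- replicate 3, and 0 to 1 lower. T and NK cell markers were also higher by genotype, 6 of 6 in sign and 1 by call. DESeq2 called 4 of these 6, and 0 to 3 were called higher when a library was left out. Their summed levels were 28.36 to 47.43 CPM in WT and 44.1 to 67.61 CPM in ISM1-/-. The leukocyte chains Itga4, Itgae, Itgal and Itgb7 had log2 fold changes of 0.35, 0.29, 0.31 and 0.33. Other leukocyte chains, Itgam, Itgb2, Itgax and Itgad, had lower ones of 0.23, 0.17, 0.14 and -0.42. These chains were named after their values were seen, and none of them was called. The part of the T and NK cell markers in these values was not tested. Itga2, a collagen-binding chain, had WT counts of 1636, 1690 and 1719 and ISM1-/- counts of 2121, 1947 and 1919 (log2 fold change 0.23, edgeR adjusted p = 0.09972). Itga7, the laminin-binding chain of muscle, had WT counts of 1079, 1428 and 1141 and ISM1-/- counts of 973, 854 and 858 (-0.46, edgeR adjusted p = 0.02433). Cardiomyocyte markers were also lower on average, 8 of 8 in sign and 1 by call (0 of 8 by DESeq2). When a library was left out, 0 to 3 were called lower, with 3 without ISM1-/- replicate 3. Their summed levels overlapped, at 1629, 532.3 and 636.6 CPM in WT and 292.1, 402.6 and 557.2 CPM in ISM1-/-. The part of these markers in the value of Itga7 was not tested. The call of Itga2 remained in 1 of the 6 fits that left out a library and that of Itga7 in 5 of 6. In the 7 other alternative settings, Itga2 was called in 3 and Itga7 in 7.

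Of 10 ligands of αv integrins, 1 was called higher and 0 lower. This was Postn, the matrix protein periostin, with WT counts of 14823, 13891 and 13786 and ISM1-/- counts of 18636, 17960 and 19546. The WT libraries were all below the ISM1-/- libraries, and the log2 fold change was 0.38 with a standard error of 0.07552 (edgeR, adjusted p = 0.03513). This call remained in 3 of the 6 fits that left out a library. Vtn, which encodes vitronectin, had a log2 fold change of -0.08 (edgeR, adjusted p = 0.7819), and Fn1, which encodes fibronectin, one of -0.19 without overlap (edgeR, adjusted p = 0.1345), both named after their values were seen. Of 14 genes of the integrin adhesion machinery, 0 were called higher and 1 lower. The lower one was Fermt1, encoding the kindlin of epithelia. It had WT counts of 208, 223 and 226 and ISM1-/- counts of 156, 129 and 165 (-0.57, edgeR adjusted p = 0.05769). Its call remained in 1 of those 6 fits.

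The other receptor gene, Hspa5, lies on the plus strand at chr2:34771970-34777547. Its promoter is shown through its ER stress response element, the bipartite motif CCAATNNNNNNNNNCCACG through which factors of the unfolded protein response act. The elements are printed as background, and their part in the levels of these genes was not tested. The motif was searched on both strands from 250 bases before to 50 after the start of each gene (RefSeq, GRCm38.p6), and capitals mark its fixed letters. The elements of Hspa5 and of all ER chaperone genes that held one are printed.
Hspa5, chr2:34772025-34772043, plus strand: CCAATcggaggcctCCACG
Calr, chr8:84847075-84847093, plus strand: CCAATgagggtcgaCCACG
Hsp90b1, chr10:86705638-86705656, minus strand: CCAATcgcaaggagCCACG
Hsp90b1, chr10:86705533-86705551, plus strand: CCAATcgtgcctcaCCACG
Canx, chr11:50325800-50325818, minus strand: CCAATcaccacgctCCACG
Pdia6, chr12:17266491-17266509, plus strand: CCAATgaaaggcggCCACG
Dnajc3, chr14:118937827-118937845, plus strand: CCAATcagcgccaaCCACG
Creld2, chr15:88819520-88819538, minus strand: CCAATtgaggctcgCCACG
The Hspa5 element begins 65 bases before the RefSeq start of Hspa5 at chr2:34772090, which lies inside the longer extent given for the gene in the deposited table, and Hsp90b1, the gene of the ER chaperone GRP94, holds 2 elements in opposite directions. An exact match was found for 6 of 13 ER chaperone genes with a promoter entry (46.2%), for 1 of 12 regulators of the unfolded protein response, for 1 of the 4 isthmin and receptor genes with an entry, which was Hspa5, and for 37 of all 27025 genes (0.137%). None of 10 other HSP70 family genes with an entry held it. A match describes the letters of the window and not the binding of a factor.

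Hspa5 held 378.1, 395.5 and 408.2 CPM in WT and 420.7, 402.8 and 521.2 CPM in ISM1-/-. The genotypes overlapped, and replicate 3 of ISM1-/- was far above the other libraries. The means were 393.9 ± 15.13 CPM in WT and 448.3 ± 63.82 CPM in ISM1-/- (SD, n = 3), a log2 fold change of 0.19 with a 95% interval of -0.02 to 0.39 (edgeR, adjusted p = 0.3691). Without ISM1-/- replicate 3 the log2 fold change was 0.07 (edgeR, adjusted p = 0.5706).

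The ER chaperones and their co-chaperones shared the high library. Of 16 genes, 15 were above their own mean over the 6 libraries in ISM1-/- replicate 3, and 11 had their highest level there, beside 49.1% and 23.8% of all genes tested. Their summed level was 3571 CPM in that library and 3039 to 3200 CPM in the other 5. Hspa5 was 0.316 above its mean log2 level in that library. The 6 chaperone genes with the element were above theirs by 0.0313 (Creld2) to 0.38 (Hsp90b1). Those without a printed element were also above theirs, by 0.00596 (Sil1) to 0.219 (Pdia3), except Sdf2l1. Only 13 of the 16 genes had a promoter entry, so some of those without a printed element were not searched. Sdf2l1, a co-chaperone of GRP78, differed from its mean by -0.261 and was the only gene of the 16 below its mean there. Sil1 and Sdf2l1 were named after their values were seen. Between genotypes none of the 16 passed the test (edgeR; 2 had an unadjusted p under 0.05, and DESeq2 called 0). Of the 16, 13 had a positive log2 fold change, and the median was 0.11, or 0.042 without ISM1-/- replicate 3. Calr, encoding the lectin chaperone calreticulin, had a log2 fold change of 0.16 (edgeR, adjusted p = 0.3121) and Pdia3, a disulfide isomerase gene, one of 0.12 (edgeR, adjusted p = 0.4792).

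**Figure D3:**
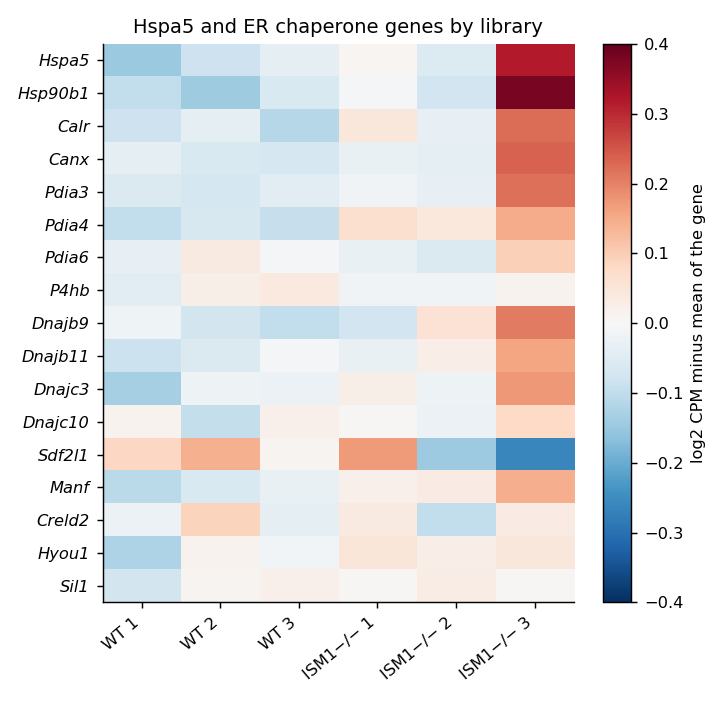
Log2 CPM of Hspa5 and 16 ER chaperone and co-chaperone genes in each library (columns), as the difference from the mean of the gene over the 6 libraries; red is above and blue below. The column of ISM1-/- replicate 3 is above the mean for Hspa5 (0.316) and for 15 of the 16 other genes, Sdf2l1 being below it.

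Of 13 regulators and effectors of the unfolded protein response, 8 were above their own mean in ISM1-/- replicate 3. None of the 13 passed the test between genotypes (edgeR; 1 had an unadjusted p under 0.05, and DESeq2 called 0), with a median log2 fold change of 0.0464. Xbp1, a transcription factor of this response, had 175.9 ± 2.111 CPM in WT and 186.5 ± 8.911 CPM in ISM1-/- (0.09, edgeR adjusted p = 0.5222), and Herpud1, of ER-associated degradation, had a log2 fold change of 0.10 (edgeR, adjusted p = 0.6151). The lists were not tested against each other.

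Among 13 other HSP70 family genes, 1 was called higher and 0 lower, with a median log2 fold change of -0.0227. Hspa12b, an atypical family member of endothelial cells, had WT counts of 3143, 3276 and 3133 and ISM1-/- counts of 4176, 3975 and 4088, with all ISM1-/- libraries above all WT libraries. Its log2 fold change was 0.34 with a standard error of 0.05696 (edgeR, adjusted p = 0.02136), and the call remained in 5 of the 6 fits that left out a library. Endothelial markers had a median log2 fold change of 0.132, with 4 of 4 higher and 0 called, and their part in the value of Hspa12b was not tested. A list of 11 genes held partners of GRP78 at the cell surface, KDEL receptors that return it to the ER, and ADP/ATP carriers. None of the 11 passed the test (edgeR, 1 with an unadjusted p under 0.05, and 0 called by DESeq2), 3 being higher and 8 lower. Lrp1, a large endocytic receptor, had a log2 fold change of -0.20 without overlap (edgeR, adjusted p = 0.2149), and Slc25a5, an ADP/ATP carrier gene, one of -0.09 (edgeR, adjusted p = 0.5222).

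Levels were compared between genes per length, in the deposited FPKM (fragments scaled by transcript length and library total). By FPKM the order was Hspa5, Itgb5, Itgav, Ism1 and Ism2. The WT means were 278.6 ± 10.71 for Hspa5, 90.61 ± 1.481 for Itgb5, 35.77 ± 1.609 for Itgav, 26.74 ± 0.9925 for Ism1 and 0.5762 ± 0.1428 for Ism2 (SD, n = 3). In ISM1-/- they were 315.0 ± 41.4, 89.73 ± 3.336, 36.46 ± 1.55, 23.29 ± 1.672 and 0.3256 ± 0.1716, in the same order of genes. Neighbours in this order were further apart than the spread of their libraries.

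The place of Itgav depended on the length used. The FPKM rest on the mean length of the annotated transcripts, which is 2405 bases for Itgav with its 9 transcripts and 2954 bases for Ism1 with its 2. The merged exons of Itgav span 10744 bases and those of Ism1 2965 bases. The level of Ism1 over that of Itgav was 0.693 in FPKM, 3.08 per merged exon length and 2.03 per longest coding transcript. Under all 3 lengths Hspa5 was the highest, Itgb5 the next and Ism2 the lowest of the 5, and Ism1 was 55.5 to 93.1 times as high as Ism2. Itgb1 was above Itgb5 by 5.06 to 6.21 times, and Itgb5 above Itgb6 by 3.31 to 4.86 times.

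**Figure D4:**
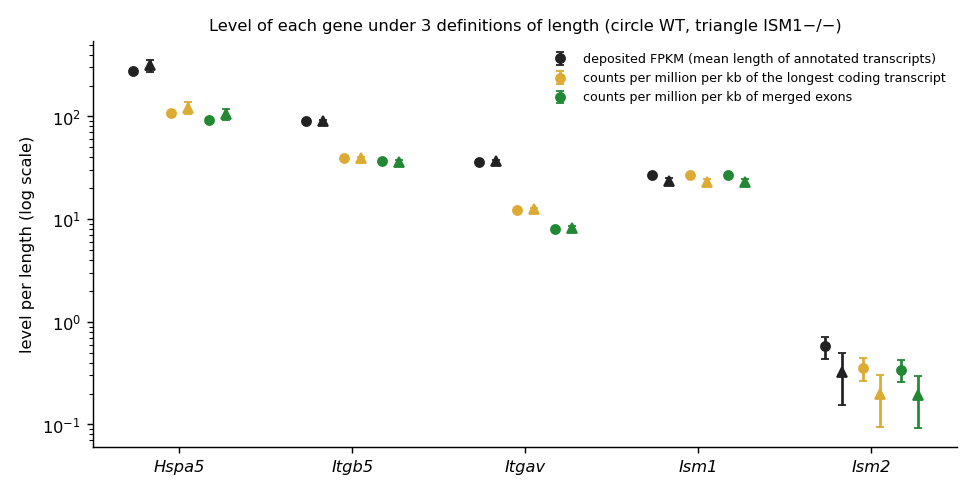
Level per length (log y axis) of the 5 genes under 3 definitions of length, as deposited FPKM and as CPM per kb of the longest coding transcript or of merged exons; circles are WT means, triangles ISM1-/- means and bars SD of 3 libraries. Ism1 is below Itgav in FPKM (ratio 0.693) and above it under the other 2 definitions (2.03 and 3.08).

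Genes with the pattern most like each of these genes were found by Pearson correlation of log2 CPM over the 6 libraries, among the 12030 protein-coding genes whose mean reached 5 CPM. The 6 libraries are the same for every gene, and 3 share each genotype, so these values are a description. For Ism1 these were Slc38a6 (r = 0.9974), Enah (0.9917), Aspg (0.9867), Fabp4 (0.9829) and Rp1 (0.9827), and 305 genes reached 0.9. Fabp4, a fatty acid-binding protein gene of adipocytes, was among the adipocyte markers given above. For Hspa5 they were Rbm28 (0.9977), Ddx42 (0.9977) and Eef1g (0.9954), with 596 genes at 0.9 or more. For Itgav they were Uso1 (0.9962), Eif4h (0.9958) and Pi4k2b (0.9956), and for Itgb5 Copz2 (0.9862), Gpnmb (0.9858) and Cd300c2 (0.9791). Only 49 genes reached 0.9 with Itgb5, whose level varied least.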

How the data were processed

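RNA of perfused whole lungs was sequenced from 3 WT and 3 ISM1-/- libraries, and groups and replicate numbers were taken from the labels. Per the study's methods, libraries were poly-A enriched and directional, and reads were mapped to GRCm38 (mm10) with STAR; CASAVA is also named in the submitters' processing notes. The counting program, annotation and strand setting are not given in the sources used here. The authors deposited raw read counts per gene, as whole numbers without normalization. The authors also deposited FPKM values, scaled by library total and by a length that matched, within 1%, the mean length of the transcripts in GENCODE M21 for 13252 of 13930 genes with a mean of at least 100 counts (95.1%).

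The 5 genes and all gene lists were chosen with earlier results of these data known. The counts entered edgeR 4.0.16 (R 4.3.3). A gene was kept if any 1 library reached 0.5 CPM, TMM scaling was applied, and genotypes were compared by the quasi-likelihood test without covariates over all 18689 genes. A gene was called at an adjusted p (Benjamini-Hochberg) under 0.1. Log2 fold changes are ISM1-/- over WT. The fitting script was tested on simulated data. Alternatives were DESeq2 1.42.0, limma 3.58.1 on log2(FPKM + 1), other scalings and filters, a replicate block, and fits without each library. Named genes were the 5 genes, every called gene of a list, the 2 with the highest FPKM of a list without calls, the αv-pairing β chains, AMOP domain genes, the nearest tested neighbours of Ism1, and the genes most alike in pattern; genes shown for a promoter element and a few others said to be chosen by value are outside this rule. Libraries of the same number did not deviate together (correlations of -0.0405, 0.031 and 0.00101). Promoter sequences were from RefSeq; exons were from GENCODE M21.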

Additional observations from a re-analysis of the deposited data

How the results depend on the processing

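The log2 fold changes of Ism1, Ism2 and Hspa5 kept their sign under all 13 alternatives, with ranges of -0.2599 to -0.1513, -1.336 to -0.2536 and 0.0653 to 0.2586 and adjusted p of 0.0356 to 0.4862, 0.08037 to 0.6319 and 0.2313 to 0.5871. The value of Ism2 nearest to 0 came from limma on log2(FPKM + 1), where the pseudocount exceeds its level. Without ISM1-KO replicate 3, Ism1 (-0.2599) and Ism2 (-1.336) were called, so that 2 of the 5 genes were called in place of 0; the cause was not tested. Leaving out a library moved Ism1 between -0.2599 and -0.1513, Ism2 between -1.336 and -0.5664, Itgav between -0.0076 and 0.0611 and Itgb5 between -0.0308 and 0.0112. Itgav was reversed without ISM1-KO replicate 3 (-0.0076) and Itgb5 without WT replicate 2 (0.0086), ISM1-KO replicate 1 (0.0046) or ISM1-KO replicate 3 (0.0112), all values close to 0. The count of called genes was 882, 1632 with no filter on low counts, and 150 to 1470 without a library, lowest without WT replicate 2 and highest without ISM1-KO replicate 3. DESeq2 called 4 of the 20 other integrin chains in place of 2, and 2 of 10 αv ligands and 2 of 14 adhesion genes in place of 1 each. It called 0 of 8 cardiomyocyte markers and 4 of 6 T and NK cell markers, in place of 1 each. The levels per merged exon length and per longest coding transcript, chosen after seeing the data, turned the log2 ratio of Ism1 to Itgav from -0.529 to 1.62 and 1.02. With a replicate block, the log2 fold changes were -0.1933 for Ism1 (adjusted p = 0.2016), -0.8605 for Ism2 (0.2159) and 0.1778 for Hspa5 (0.2313), 0 of the 5 genes and 1105 of all genes were called, and the shared numbers did not pair the libraries. With 14 to 43 counts per library, the depth limits what can be said of Ism2.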
